A study of Rattus norvegicus with 13 samples.

Results

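The miR-378a locus was represented by 4 rows of the deposited count table, out of 460 mature rat miRNAs and 1121 features in all. The rows were selected on their names: the arms rno-miR-378a-3p and rno-miR-378a-5p of the miR-378a hairpin, and rno-miR-3557-5p and rno-miR-3557-3p, the arms of a hairpin annotated on the opposite strand of the same place. All 4 passed the filter on low counts. Which names to include was itself decided on the counts that the rows share across the 13 libraries, with their CPM in the 3 groups already known. The prefix rno, for rat, is left out in most of the text. The ratio of miR-3557 to miR-378a counts is therefore described without a test, and the adjusted p-values below describe the rows and are not independent evidence.

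Small RNA libraries were made from kidneys of 13 female rats of the strain Wistar - WAG/RijCmcr, an inbred strain. The rats were 11 to 12 weeks old at irradiation and weighed about 155 g, and all kidneys were taken at day 35. Age-matched controls (n = 4) had no radiation and no drug. Irradiated rats (n = 4) received 13 Gy leg-out PBI, that is, X-rays to the whole body except a shielded hind limb, and no lisinopril. The lisinopril group (n = 5) received the same irradiation and, from day 7, lisinopril in the drinking water at about 24 mg per square metre per day. Lisinopril inhibits angiotensin converting enzyme. Saline injections on days 3 to 7 and the antibiotic enrofloxacin until day 14 were part of the care, and the protocol does not say whether controls had them. The labels give no litter, batch or pairing, and the RNA is of whole kidney, so that fewer cells of a type and less of a miRNA per cell cannot be told apart.

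miR-378a is made from an intron of Ppargc1b, the gene of the transcriptional coactivator PGC-1beta, which drives mitochondrial biogenesis and fatty acid oxidation. It is abundant in tissues with a high oxidative load, and the kidney, whose tubules burn fatty acids, is one of these. The guide strand miR-378a-3p is known to repress carnitine O-acetyltransferase, an enzyme of mitochondrial acyl-group transfer, and the insulin-like growth factor receptor Igf1r. The other strand, miR-378a-5p, is usually degraded as a passenger, and its known targets include the nuclear receptor ERR-gamma. No function of miR-3557 is described here.

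The mature sequences of the 4 rows are shown because they explain how the rows relate to each other. They are from RefSeq (assembly GRCr8, where all 4 names were found), written 5′ to 3′, with the seed (bases 2 to 8, which pair with target mRNAs) in capitals.
rno-miR-378a-3p: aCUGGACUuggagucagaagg
rno-miR-3557-5p: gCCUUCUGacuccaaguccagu
rno-miR-378a-5p: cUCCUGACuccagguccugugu
rno-miR-3557-3p: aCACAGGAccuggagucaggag
In that assembly both hairpins lie on chromosome 18 within the annotated span of Ppargc1b, miR-378a on the minus strand and miR-3557 on the plus strand. miR-3557-5p is the exact reverse complement of miR-378a-3p over all 21 bases of the latter, with 1 base more. miR-3557-3p is the exact reverse complement of miR-378a-5p over all 22 bases. The 4 seeds all differ, and no other mature rat miRNA of the RefSeq table has any of them. An RNA read from the strand of miR-378a therefore cannot be told from an RNA of miR-3557 unless its strand was kept in counting, and the sources used here do not state how strand was treated.

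Rat miRNA counts per library ran from 4885082 to 11095939, except for control library 2 with 1194175. Values are given as CPM, the counts of a miRNA scaled to a common library total, on library sizes scaled by TMM, a method that aligns the bulk of miRNAs between libraries. Control library 2 had the highest floor (3 counts, 3.19 CPM, against 0.289 to 0.561 CPM elsewhere), and all 4 rows stood far above it. Floors cover counting error only. Of the irradiated libraries, 2 and 4 were the least alike (chi-square over its degrees of freedom 816, against 84.8 to 367 for the other pairs), and each of them moved values of the locus when left out, in opposite directions. Without irradiated library 4, edgeR's quasi-likelihood test called 60 of 429 miRNAs between irradiated and control kidneys in place of 7 of 419, and without irradiated library 2 it called 4. Results that rest on either are given with and without it. The 8 kidney epithelial markers were all present and summed to 431814 to 742908 CPM in control, 351386 to 484106 CPM in irradiated and 447398 to 577748 CPM in lisinopril kidneys. The most abundant of them, miR-10a-5p, averaged 396298 CPM in control, 273033 CPM in irradiated and 361956 CPM in lisinopril kidneys, and did not pass the test (edgeR adjusted p = 0.0931 for irradiated against control and 0.261 for lisinopril against irradiated). This miRNA made up most of each sum, so the sums do not show how the other kidney markers moved. The part of these levels in the values of the locus was not tested.

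The 2 strands of the locus were counted in almost fixed proportion. Reads assigned to miR-3557-5p were 0.702 to 0.747 times those assigned to miR-378a-3p in the 13 libraries, with a mean of 0.725 ± 0.0143 (SD, n = 13). Reads assigned to miR-3557-3p were 0.802 to 0.884 times those of miR-378a-5p, with a mean of 0.854 ± 0.0206. By group, the first ratio was 0.726 ± 0.0118 in control (n = 4), 0.736 ± 0.0133 in irradiated (n = 4) and 0.717 ± 0.0130 in lisinopril kidneys (n = 5), and the 3 ranges overlapped. The log2 CPM of each antisense row followed that of its sense partner (Pearson r = 0.991 for the abundant pair and 0.997 for the rare pair over 13 libraries), whereas the 2 arms of miR-378a followed each other less closely (r = 0.698). These rows share library, depth and scaling, so the r values are descriptions. Whether the same reads were counted in both rows was not tested, and the miR-3557 rows are reported as uncertain.

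**Figure D1:**
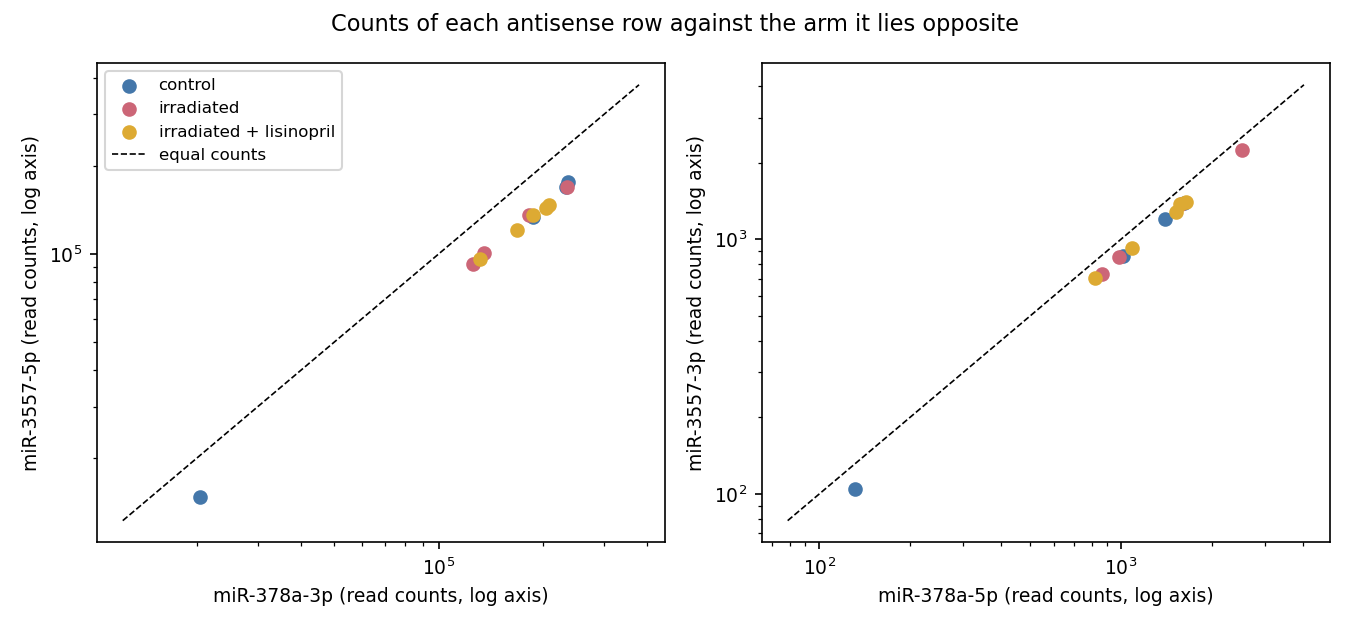
Read counts of miR-3557-5p against miR-378a-3p (left) and of miR-3557-3p against miR-378a-5p (right) in each of the 13 libraries, on log axes, coloured by group; the dashed line marks equal counts. All points lie just under the line, at 0.702 to 0.747 and 0.802 to 0.884 times the sense count, and the point far to the lower left is control library 2.

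The same annotation holds 29 other pairs of mature rat miRNAs in the table that overlap by at least 16 bases on opposite strands. In 14 of them the rarer row held at least 0.5 times the counts of the more abundant row over all libraries, and over the 29 this ratio ran from 0.000332 to 0.989. As 2 examples, chosen after the values were seen, the ratio was 0.826 for miR-183-5p and its antisense partner miR-3553 and 0.753 for miR-125b-5p and miR-3588. The proportions at the miR-378a locus were within that range, which spans nearly all values such a ratio can take, so this says little about the locus.

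miR-378a-3p was among the most abundant miRNAs of the kidney. It ranked 7th to 10th of 460 in the single libraries and held 1.71% to 3.46% of rat miRNA counts. Its read counts ran from 20379 in control library 2 to 236927 in control library 3. The passenger miR-378a-5p had 131 to 2525 counts, ranked 92nd to 139th, and held 0.0110% to 0.0372%. miR-3557-5p ranked 11th to 15th and miR-3557-3p ranked 97th to 150th. Other rows named for the miR-378 family were close to empty. rno-miR-378b had 2 to 11 counts per library, and of the rows named after other species hsa-miR-378g had 7 to 57, hsa-miR-378h 0 to 25, bta-miR-378b 1 to 11 and hsa-miR-378f 0 to 7.

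The first comparison sets irradiated kidneys without lisinopril against control kidneys at day 35. Irradiated rats also had saline and enrofloxacin, which are not stated for controls, so irradiation and this care cannot be told apart. The guide miR-378a-3p was level between the groups and its passenger lay higher after irradiation, but none of the 4 rows passed the test. miR-378a-3p was at 24083, 21677, 22845 and 27465 CPM in control libraries 1 to 4. In irradiated libraries 1 to 4 it was at 25263, 29138, 25461 and 21208 CPM. The 2 groups overlapped over most of their range, with irradiated library 2 the highest of all 13 libraries. The means were 24018 ± 2500 CPM (SD, n = 4) and 25268 ± 3240 CPM (n = 4), a log2 fold change of 0.07 (SE 0.114, 95% confidence interval -0.17 to 0.32, adjusted p = 0.721, edgeR's quasi-likelihood test, Benjamini-Hochberg over 419 miRNAs). The same test called 1.67% of all miRNAs in this comparison, and the groups did not overlap for 7.16%.

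miR-378a-5p was at 130, 139, 156 and 165 CPM in the controls and at 184, 313, 220 and 146 CPM in irradiated libraries 1 to 4. Irradiated libraries 1, 2 and 3 lay above every control, and library 4 lay among the controls. The means were 148 ± 15.8 CPM and 216 ± 71.7 CPM (n = 4 each), 1.46-fold apart (log2 fold change 0.54, SE 0.197, interval 0.12 to 0.97), with an edgeR adjusted p = 0.112. miR-3557-3p, opposite it, was at 124 ± 15.5 CPM in control and 187 ± 65.9 CPM in irradiated kidneys (log2 fold change 0.59, SE 0.208, edgeR adjusted p = 0.105). As this row was counted in almost fixed proportion to miR-378a-5p, its values add no separate support. miR-3557-5p, opposite the guide, was at 17438 ± 1803 and 18580.0 ± 2260 CPM (log2 fold change 0.09, SE 0.112, edgeR adjusted p = 0.63). The irradiated group was the most variable of the 3 for the rare arm, with a coefficient of variation of 33.2% for miR-378a-5p against 10.7% in control and 12.8% in lisinopril kidneys.

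Without irradiated library 4, the rare arm passed the test. miR-378a-5p then averaged 239 ± 66.8 CPM in irradiated kidneys (n = 3), with a log2 fold change of 0.72 (SE 0.189, edgeR adjusted p = 0.0259). For miR-3557-3p the log2 fold change was 0.77 (edgeR adjusted p = 0.0243). In that fit 14.0% of all 429 miRNAs were called, 8.16% as higher, and the 3 libraries lay above all controls for 11.7%, so that a call was far more common than with all libraries. The guide did not pass, at a log2 fold change of 0.17 (interval -0.08 to 0.41, edgeR adjusted p = 0.308). Leaving out irradiated library 2 instead, the highest for all 4 rows, gave 0.31 for miR-378a-5p (edgeR adjusted p = 0.41) and 0.34 for miR-3557-3p (edgeR adjusted p = 0.399).

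**Figure D2:**
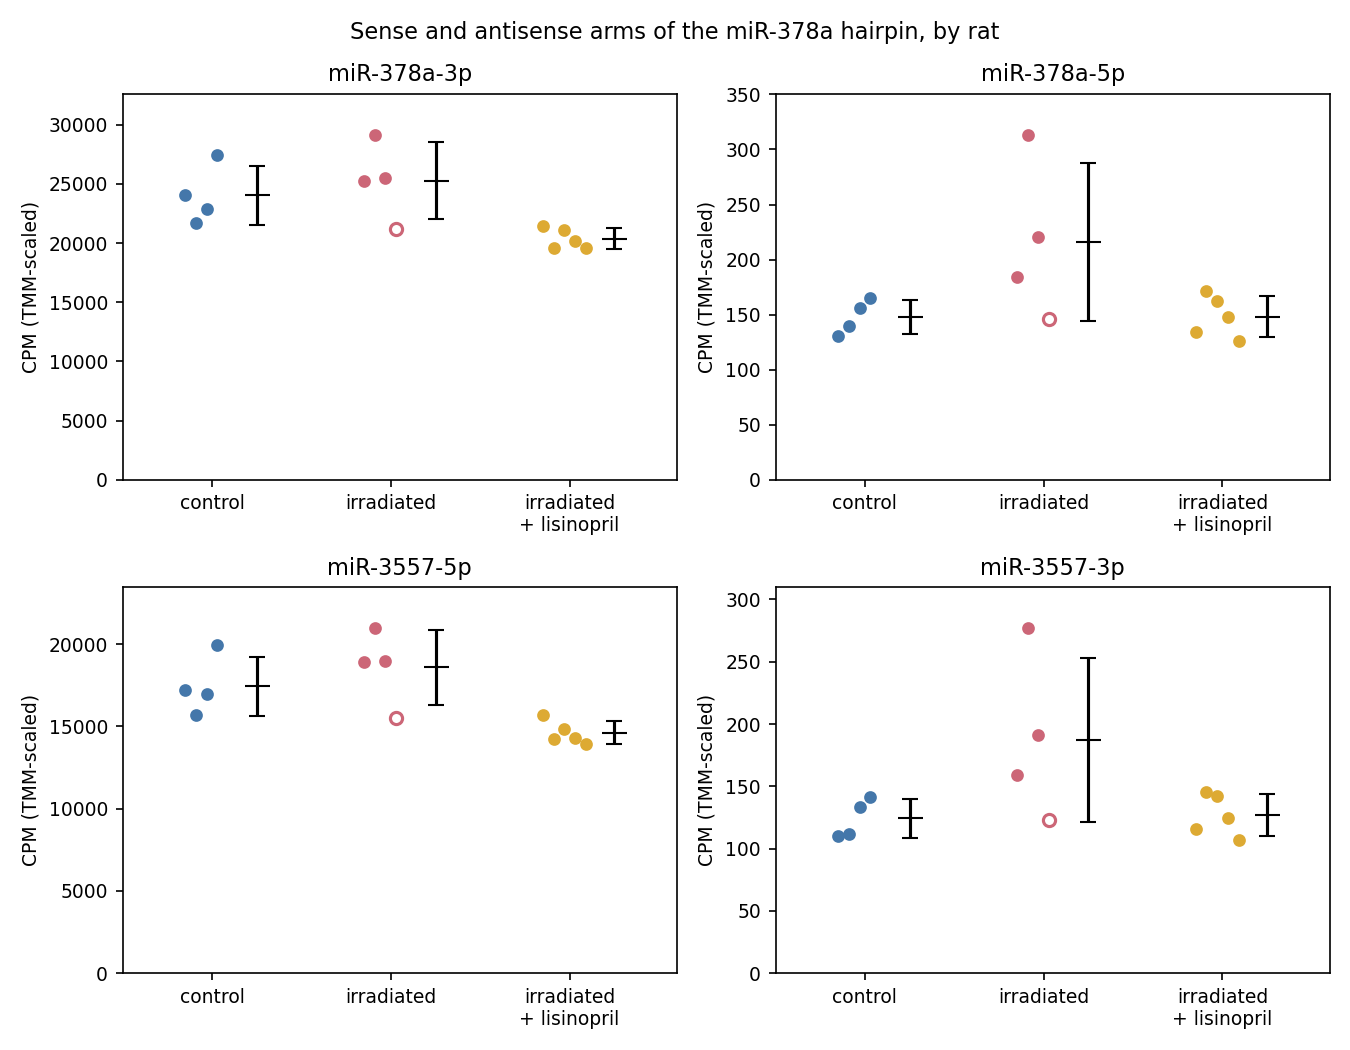
TMM-scaled CPM of the 4 rows on a linear axis, one point for each rat, and black bars for mean ± SD of each group (4 control, 4 irradiated and 5 lisinopril kidneys); the open circle is irradiated library 4. In the lisinopril group miR-378a-3p lies between 19550 and 21469 CPM, below every control (21677 CPM or more) and below irradiated libraries 1 to 3, while miR-378a-5p is spread widest in the irradiated group, from 146 to 313 CPM.

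The second comparison asks what lisinopril adds in rats that were all irradiated. All 4 rows were lower with the drug than without it, and none passed the test with all 13 libraries. miR-378a-3p was at 21469, 19558, 21101, 20208 and 19550.4 CPM in lisinopril libraries 1 to 5, against 21208 to 29138 CPM in irradiated libraries. The groups overlapped only through irradiated library 4, the lowest of its group, which lay below lisinopril library 1. The lisinopril mean was 20377 ± 880.4 CPM (SD, n = 5), a log2 fold change of -0.31 (SE 0.108, interval -0.54 to -0.08, edgeR adjusted p = 0.227). miR-3557-5p had a log2 fold change of -0.35 (SE 0.106, edgeR adjusted p = 0.165), from 18580.0 ± 2260 to 14603 ± 693 CPM. DESeq2 called both of these abundant rows lower, with adjusted p = 0.0485 for miR-378a-3p (log2 fold change -0.33) and 0.024 for miR-3557-5p (-0.37).

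miR-378a-5p was at 134, 172, 162, 148 and 126 CPM in lisinopril libraries 1 to 5, of which 3 lay within the range of the controls, 1 above it and 1 below it. The group overlapped the irradiated group, whose library 4 was at 146 CPM. Its mean was 148 ± 19.0 CPM (n = 5), a log2 fold change of -0.54 against irradiated kidneys (SE 0.185, interval -0.94 to -0.15, edgeR adjusted p = 0.227). For miR-3557-3p the value was -0.56 (SE 0.195, edgeR adjusted p = 0.227), at 127 ± 16.8 CPM with the drug. Over all 419 miRNAs edgeR called 0 here (0.0%), the groups did not overlap for 4.3%, and 63 had an unadjusted p under 0.05, while DESeq2 called 11 and limma-voom 2. The 4 rows stood 12th to 21st by p-value.

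Without irradiated library 4 all 4 rows were lower with lisinopril. The log2 fold change was -0.41 for miR-378a-3p (SE 0.108, edgeR adjusted p = 0.0386) and -0.72 for miR-378a-5p (SE 0.178, adjusted p = 0.0346). It was -0.45 for miR-3557-5p (edgeR adjusted p = 0.0321) and -0.75 for miR-3557-3p (edgeR adjusted p = 0.0346). Without irradiated library 2 instead, none of the 4 passed: the values were -0.32 for miR-378a-5p (edgeR adjusted p = 0.528), -0.32 for miR-3557-3p (0.535), -0.24 for miR-378a-3p (0.47) and -0.29 for miR-3557-5p (0.427). With library 4 left out, the 5 lisinopril libraries lay below the remaining 3 irradiated libraries for each row, as they did for 8.83% of all miRNAs, and 11.0% of miRNAs were called, 6.29% as lower. The 4 rows stand for a single hairpin region and cannot count as 4 separate observations.

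**Figure D3:**
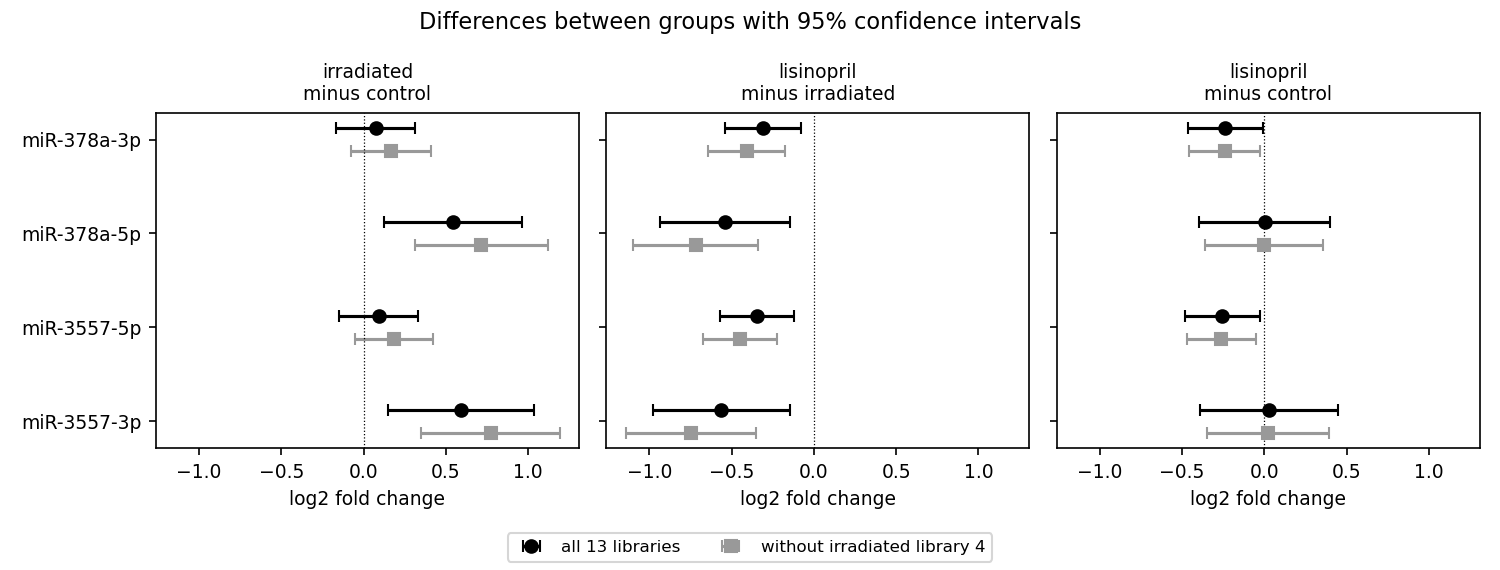
Log2 fold change of each row with its 95% confidence interval in the 3 comparisons, from the fit of all 13 libraries (black circles) and the fit without irradiated library 4 (grey squares). The left and middle panels shift away from 0 without that library, to 0.72 and -0.72 for miR-378a-5p, and the right panel hardly moves.

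The third comparison sets the lisinopril group against unirradiated controls, so that irradiation and drug, and possibly the care, differed together. Here the guide lay lower and the passenger was level. Every lisinopril library was below every control for miR-378a-3p in TMM-scaled CPM, 19550.4 to 21469 CPM against 21677 to 27465 CPM. As a share of rat miRNA counts, without TMM, the groups overlapped. Control library 2, the lowest control in CPM, held 1.71%, below every lisinopril library (1.75% to 2.28%). In TMM-scaled CPM, groups did not overlap for 13.4% of all miRNAs in this comparison, 7.4% in the lower direction. The log2 fold change was -0.24 (SE 0.108, interval -0.47 to -0.01, edgeR adjusted p = 0.208), and the test called 6.21% of all miRNAs. miR-3557-5p was at -0.26 (SE 0.106, edgeR adjusted p = 0.17), and its groups overlapped by a narrow margin, since lisinopril library 1 at 15710 CPM lay above control library 2 at 15673 CPM. miR-378a-5p had 148 CPM in both group means (log2 fold change 0.00, interval -0.40 to 0.40, edgeR adjusted p = 0.997), and miR-3557-3p was at 0.03 (edgeR adjusted p = 0.967). Without irradiated library 4, which enters here only through the shared spread, miR-378a-3p was at -0.24 (edgeR adjusted p = 0.149, with 7.69% of miRNAs called). This comparison shares its controls with the first and its treated rats with the second.

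Scaling mattered for the size of these values. With library totals alone the median of all 419 miRNAs moved to 0.26 between irradiated and control kidneys and to -0.21 between the irradiated groups. miR-378a-3p then had log2 fold changes of 0.33 and -0.50, which are 0.07 above and 0.29 below those medians. With TMM the same distances were 0.05 above and 0.29 below. A change of scaling shifts all miRNAs of a library alike, and the median with them. That these distances hardly moved was therefore set in advance and is no check of the values. Between the irradiated groups the guide lay below the median under both. Between lisinopril and control kidneys it was at -0.17 with library totals alone, against -0.24 with TMM.

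The ratio of the 2 arms does not depend on library size. There were 185, 156, 146 and 166 reads of miR-378a-3p per read of miR-378a-5p in control libraries 1 to 4. The irradiated libraries 1 to 4 had 137, 93.0, 116 and 145. With lisinopril, libraries 1 to 5 had 160, 114, 130, 136 and 156. All 4 irradiated kidneys lay below all 4 controls, by a narrow margin between irradiated library 4 and control library 3, and the lisinopril group overlapped both. The mean log2 ratio was 6.92 ± 0.29 (SD, n = 4) in irradiated and 7.34 ± 0.14 (n = 4) in control kidneys, a difference of -0.425. By exact permutation, two-sided, p was 0.0286, which 4 against 4 cannot go below, and 0.0857 once adjusted over the 3 comparisons. Beside the other 2 p-values, given below, no lower adjusted value was possible, so this comparison could not pass the threshold. Without irradiated library 2 the difference was -0.30 (exact permutation p = 0.0571), and without control library 1 it was -0.36 (exact permutation p = 0.114). The difference was -0.23 between lisinopril and control kidneys (exact permutation p = 0.111, adjusted 0.167) and 0.19 between the irradiated groups (exact permutation p = 0.294, adjusted 0.294). The last value was 0.07 without irradiated library 2 and 0.28 without irradiated library 4. None of the 3 passed the threshold after adjustment.

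**Figure D4:**
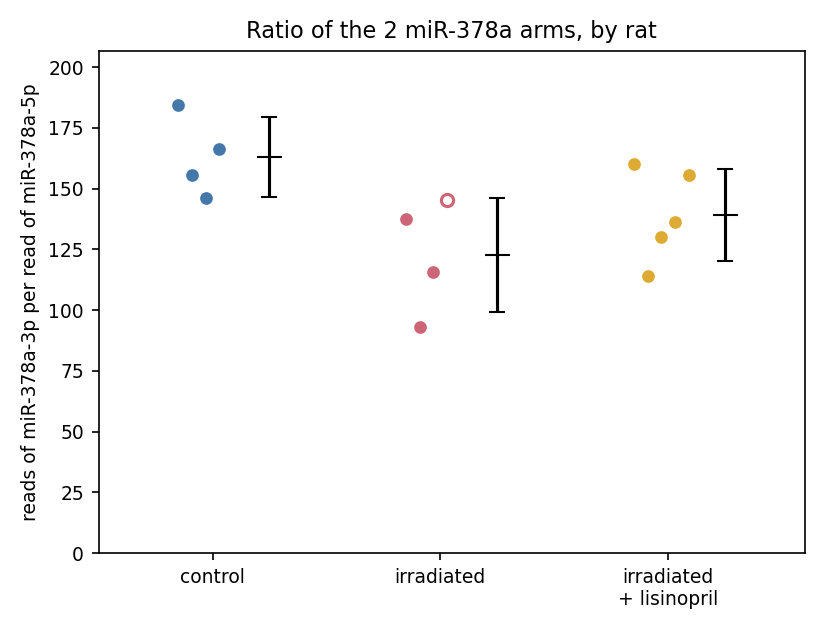
Reads of miR-378a-3p per read of miR-378a-5p in each rat, with black bars for mean ± SD, on an axis that starts at 0; the open circle is irradiated library 4. Controls lie between 146 and 185, irradiated kidneys between 93.0 and 145, and lisinopril kidneys between 114 and 160.

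For comparison, the rarer arm over the more abundant one was computed for all 114 miRNAs with both arms tested and counted in every library. Between irradiated and control kidneys the rarer arm was relatively higher in 74 of 114, with a median log2 difference of 0.10. miR-378a, at 0.425, stood 25th from the top. The irradiated group lay wholly above control in 3 of 114 (2.63%), and these were miR-378a, miR-3557, which mirrors it, and miR-425. Between the irradiated groups the median was -0.12 and miR-378a was at -0.19.

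**Figure D5:**
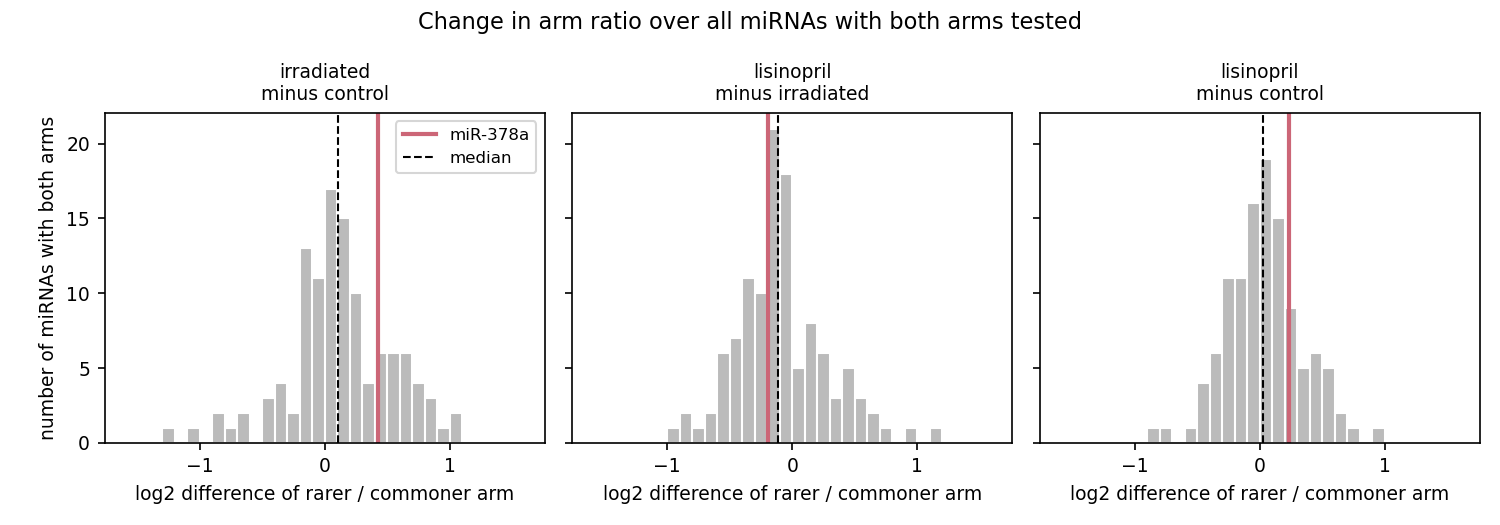
Histograms of the log2 difference between groups in the ratio of the rarer to the more abundant arm, over 114 miRNAs, for the 3 comparisons; the red line is miR-378a and the dashed line the median. In the left panel miR-378a is at 0.425, 25th from the right, and the median is at 0.10.

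Of 147 miRNAs outside the locus whose mean reached 100 CPM, the 5 whose log2 CPM followed miR-378a-3p most closely over the 13 libraries were miR-28-3p (r = 0.878), miR-375-3p (0.814), miR-151-3p (0.791), miR-320-3p (0.772) and miR-140-3p (0.71). They share libraries and scaling with it, and the r values are descriptions. Without irradiated library 4 they were between 0.7 and 0.875. Since they were picked for following miR-378a-3p over these libraries, the order of their group means was largely set by the choice and is given only as a description. miR-320-3p went from 266 ± 14.7 in control to 297 ± 61.3 in irradiated and 215 ± 31.3 CPM in lisinopril kidneys, and miR-375-3p, typical of endocrine cells, from 1739 ± 180 to 1871 ± 305 and 1507 ± 202 CPM. Of the 5, only miR-140-3p had a lisinopril mean above control, at 1542 ± 177 against 1416 ± 289 CPM, with 2049 ± 569 CPM in irradiated kidneys. None of the 5 passed the test in any comparison with all libraries.

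A list of 29 miRNAs linked to lipid, glucose or mitochondrial metabolism was followed beside the locus, of which 23 were in the table and 22 were tested. Between irradiated and control kidneys 1 fell and 0 rose (edgeR, with 93 of all 419 miRNAs at an unadjusted p under 0.05), where 1.19% of all miRNAs fell and 0.477% rose. The list's median log2 fold change was 0.08 against 0.02 over all miRNAs. The miRNA that fell was miR-802-5p, linked to glucose metabolism, from 11.4 ± 2.75 to 4.98 ± 1.68 CPM (n = 4 each, edgeR adjusted p = 0.0216). The call was lost without control library 1 (edgeR adjusted p = 0.088), control library 4 (0.0803), irradiated library 2 (0.0671) or irradiated library 3 (0.0608), and with library totals alone or only the 2 groups. Next by p-value was miR-210-3p, which is induced by hypoxia and restrains mitochondrial respiration, at 178 ± 8.43 and 260 ± 64.1 CPM (log2 fold change 0.55, edgeR adjusted p = 0.0709).

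Between lisinopril and control kidneys 2 of the 22 fell and 0 rose, against 5.49% and 0.716% of all miRNAs. They were miR-802-5p, to 4.41 ± 0.536 CPM (log2 fold change -1.30, edgeR adjusted p = 0.00226), and miR-499-5p, a miRNA of slow muscle that is also on the muscle list, from 315 ± 129 to 173 ± 15.4 CPM (log2 fold change -0.85, edgeR adjusted p = 0.0256). Without control library 2 the log2 fold change of miR-499-5p was -0.54 (edgeR adjusted p = 0.0485), and the call was lost without any one of lisinopril libraries 1, 3, 4 and 5 (edgeR adjusted p 0.0536 to 0.0729). The call of miR-802-5p against control held under each of the 25 alternatives run. The list's median was 0.05, as over all miRNAs. Between the irradiated groups 0 were called, with miR-185-5p, linked to cholesterol uptake, at -0.35 and miR-27b-3p, linked to lipid metabolism, at 0.35 (edgeR adjusted p = 0.248 for both). The median was -0.01 against -0.02 over all miRNAs.

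Since miR-378a-3p is also abundant in muscle and brown fat, markers of those tissues are given beside it. Of 7 muscle miRNAs 3 were in the table, and they summed to 261 to 540 CPM in control, 189 to 267 in irradiated and 185 to 226 CPM in lisinopril kidneys, against 19550.4 CPM or more for miR-378a-3p itself. The highest muscle sum was that of control library 2, and that of irradiated library 4 was 267 CPM. Of 4 brown fat miRNAs 3 were in the table, at 70.2 to 98.9, 85.6 to 129 and 105 to 139 CPM. Leukocyte markers (4 of 4) summed to 648 to 976, 799 to 1232 and 642 to 1401 CPM, and erythroid markers (3 of 3) to 917 to 2092, 790 to 4202 and 673 to 3470 CPM. Neural and endocrine markers (3 of 4) summed to 1848 to 2217, 1954 to 2422 and 1675 to 2138 CPM. None of these markers in the table was at 0 in any library, the liver marker miR-122-5p was not analysed here, and the only marker called with all libraries was miR-499-5p. The part of other cell types in the values of the locus was not tested.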

How the data were processed

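Total RNA of 13 rat kidneys was made into TruSeq small RNA libraries, per the labels' protocols. Reads were processed with Trim Galore 0.2.5 and Bowtie 1.1.1 on build rn4, per the submitters' processing notes; the counting method and its use of strand were not stated in the sources. The authors deposited read counts, in whole numbers, for each miRNA in each library.

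Counts of 460 rat miRNAs entered edgeR 4.0.16 (R 4.3.3): filterByExpr by group (419 kept), TMM scaling, a quasi-likelihood model over all 3 groups (biological coefficient of variation 0.247) and Benjamini-Hochberg adjustment with a threshold of 0.05. Log2 CPM used a prior count of 2. Arm ratios used raw counts and two-sided exact permutation tests. Groups came from the labels, and replicates, which were numbered in accession order, were not duplicates (chi-square over its degrees of freedom 84.8 to 816 between replicates). The labels do not say more of the animals' independence than that they were separate rats. The members and lists were chosen with earlier results of these data known. Named were the 4 rows, the 5 miRNAs most like miR-378a-3p, called list members or the 2 with the smallest p, and the leading kidney marker. On counts simulated for the irradiated against control comparison (409 miRNAs tested), 80.6% of log2 changes of size 1 and 100% of size 2 were called, as were 2.34% of unchanged miRNAs. There, 98 miRNAs had a change of size 1, 97 of size 2 and 214 none, whereas 7 of 419 were called in the data. The adjusted threshold is easier to pass where many miRNAs change, so these shares may be too high for the data. Changes below size 1, as at the locus, were not simulated, so these shares do not tell how often the test would call them. Alternatives included limma 3.58.1, DESeq2 1.42.0, other scalings and filters, and leaving out each library.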

Additional observations from a re-analysis of the deposited data

Results flagged for a closer look

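Of 24 sets of values examined (8 measures in 3 groups), 1 held a library far from the others of its group, where chance gives about 1 in 20. In control library 2 the ratio of miR-3557-3p to miR-378a-5p counts was 0.802, against 0.847 or more in the other 3 controls. That library, the shallowest, held 105 and 131 counts of these rows.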

How the results depend on the processing

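No paired analysis was possible because the replicate numbers were given in accession order and carry no pairing. Control library 2 had the fewest reads, and the number of animals limits precision. The setting without control library 2 and irradiated library 4, those that merged or dropped the miR-3557 rows, and all alternatives for miR-802-5p and miR-499-5p were chosen after seeing the data. miR-378a-3p between lisinopril and control kidneys and miR-3557-5p in both comparisons with control kept direction and side of the threshold under every alternative run, as did the 3 arm ratios after adjustment, although leaving out 1 library moved their log2 differences from -0.51 to -0.30, from 0.07 to 0.28 and from -0.29 to -0.16, in the order of the comparisons. For the 4 rows, the low and high ends between the irradiated groups came from leaving out irradiated library 4 and irradiated library 2. The cause of the changes below was not tested.

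Leaving out 1 library at a time gave these ranges. For irradiated minus control the log2 fold change was -0.0004 to 0.17 for miR-378a-3p, 0.31 to 0.72 for miR-378a-5p and 0.34 to 0.77 for miR-3557-3p, and the number of called miRNAs, 7 with all libraries, was 1 (without control library 4) to 60 (without irradiated library 4). For lisinopril minus irradiated it was -0.41 to -0.24 for miR-378a-3p, -0.72 to -0.32 for miR-378a-5p, -0.75 to -0.32 for miR-3557-3p and -0.45 to -0.29 for miR-3557-5p, with 0 to 47 called (47 without irradiated library 4), and -0.3394 to 0.009 for miR-802-5p, which was called in neither direction. For lisinopril minus control it was -0.0627 to 0.0588 for miR-378a-5p and -0.033 to 0.0931 for miR-3557-3p, with 13 (without control library 4) to 43 called (without irradiated library 2). Without both control library 2 and irradiated library 4, miR-3557-3p was at 0.71 in the first comparison, with 35 called. In the second, miR-378a-3p was at -0.39, miR-378a-5p at -0.69, miR-3557-3p at -0.72 and miR-3557-5p at -0.43, with 63 called. Between lisinopril and control kidneys, miR-378a-5p was at -0.02 and miR-3557-3p at -0.01.

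By setting, DESeq2 gave -0.33 for miR-378a-3p and -0.37 for miR-3557-5p between the irradiated groups, and called 37 miRNAs in the first and 11 in the second comparison. In the first comparison library totals alone called 2 and a fit of only the 2 groups 1. In the second, 2 each were called with RLE size factors, library totals, a mean of at least 10 CPM, library sizes without the 4 rows, limma-voom, the antisense rows added to the arms, and the table without the miR-3557 rows. Between lisinopril and control kidneys, miR-378a-5p, at 0.00 in the report, was at -0.02 with RLE, -0.0486 with a mean of at least 10 CPM, -0.0206 with DESeq2 and -0.0058 with limma-voom, and miR-3557-3p was at -0.0223 with a mean of at least 10 CPM. That filter called 17 miRNAs in place of 26, and a fit of only the 2 groups called 40.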
